A study of Mus musculus with 36 samples.

Results

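The 70 genes whose symbols begin with Hist1h, Hist2h, Hist3h or Hist4h carry the names of replication-dependent histone genes. They were chosen by that symbol alone among the 49568 gene rows listed in each of 2 count tables. They comprise 6 genes for the linker histone H1, 20 for H2A, 19 for H2B, 12 for H3 and 13 for H4. Of these, 56 lie in the Hist1 cluster on chromosome 13, 10 in the Hist2 cluster on chromosome 3, 3 in Hist3 on chromosome 11 and 1 is Hist4h4 on chromosome 6. GENCODE lists 3 of the symbols, Hist1h2aj, Hist1h2al and Hist3h2bb-ps, as pseudogenes. The counts come from RNA-seq of RAW264.7 cells, an established line of mouse macrophages. The study asked whether 15-residue peptides from the third allelic hypervariable region of human HLA-DRB1 shift macrophage gene expression toward the M1 state, with IFNγ, or the M2 state, with Il-4. Each of the 2 tables, IFNγ and Il-4, held 6 libraries of cells with PBS, 6 of cells with the peptide 65–79*SE, whose sequence is that of arthritis risk alleles, and 6 of cells with 65–79*PE, that of protective alleles. Peptides were given at 100 µg/ml, the cytokine at 5 ng/ml, and RNA was taken at 72 h, after a change of medium at 48 h. The stated kit, the same for all libraries, selects poly(A) RNA, but replicates 4–6 hold much RNA that lacks a poly(A) tail.

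Replication-dependent histone genes are transcribed in S phase, when newly made DNA has to be wrapped into nucleosomes. A nucleosome holds H2A, H2B, H3 and H4, and H1 binds the DNA between nucleosomes. Their mRNAs are the exception among animal mRNAs in that they end in a conserved stem-loop in place of a poly(A) tail. The stem-loop binding protein Slbp holds this end, U7 snRNA directs the cut just after it, and the mRNA is degraded when replication stops. Some of these genes are also known to give polyadenylated transcripts, which run past the stem-loop to a poly(A) signal, when cells leave the cycle or differentiate. Variant histones such as H3f3a, H3f3b, H2afz and H1f0 are made outside S phase from ordinary polyadenylated mRNAs. The level of the 70 genes in a library made from poly(A) RNA therefore bears on both proliferation and the selection of RNA.

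The stem-loop was searched in GENCODE M21 transcripts (GRCm38) in the sense strand, as a stem of GGNNCT paired with AGNNCC over at least 5 of 6 bases, around a loop of TTTN. It was present in the transcripts of 44 of the 70 genes and of 29 of 55271 other gene names, or 0.0525%. The sequences below are those of genes the results turn on, 5′ to 3′, with the stem-loop in capitals and the flanking bases in lower case.

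Hist1h1c: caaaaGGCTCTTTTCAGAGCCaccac

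Hist2h2aa2: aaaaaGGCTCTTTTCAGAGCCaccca

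Hist3h2a: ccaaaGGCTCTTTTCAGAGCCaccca

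Hist1h2bb: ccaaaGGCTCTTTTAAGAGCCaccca

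Hist1h3f: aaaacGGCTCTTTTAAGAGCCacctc

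Hist1h4d: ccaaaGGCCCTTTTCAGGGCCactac

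Hist1h4h: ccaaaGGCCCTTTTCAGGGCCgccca

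Hist4h4: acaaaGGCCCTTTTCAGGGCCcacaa

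Across the 44 genes the stem-loop took 6 forms. The form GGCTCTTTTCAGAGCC occurred in 26 genes, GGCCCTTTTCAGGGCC in 7, GGCTCTTTTAAGAGCC in 6, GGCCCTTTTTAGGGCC in 2, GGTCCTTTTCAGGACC in 2 and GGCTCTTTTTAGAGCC in 1. What followed the stem-loop also differed. The annotated transcript ended 35 bases after it in Hist2h2aa2, 23 bases in Hist1h2bb and 46 bases in Hist1h4h. It went on for 840 bases in Hist1h1c, 770 in Hist1h4d, 1643 in Hist3h2a and 2445 in Hist4h4. In these 4 genes a poly(A) signal followed, as it did in Hist1h4h. None followed in Hist1h1e, with 1153 bases after the stem-loop, or in Hist1h3f, with 365, so a long annotated end did not always hold a signal. Of the 70 genes, 22 were annotated to at least 100 bases past the stem-loop, 22 ended within 100 bases of it and 26 had no match in the annotated transcript. Hist2h2be (GRCm38 chr3:96221119-96223738, + strand, 1 exon) and Hist1h2bc (chr13:23684199-23692908, + strand, 2 exons) were among the 26.

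Within every group, replicates 1–3 and 4–6 carry labels of different schemes, here called label sets. The study describes the 6 libraries of a group as biological replicates from 2 experiments, and which experiment a library belongs to was not read from the labels. P-values measure the spread between these libraries. Total counts were 27987849 to 33833725 in IFNγ replicates 1–3, 20666573 to 63155889 in IFNγ replicates 4–6, 23307445 to 26611935 in Il-4 replicates 1–3 and 17049921 to 30639021 in Il-4 replicates 4–6. A count of 0 allowed a level of up to 0.0475 to 0.176 per 1000000 total counts before TMM scaling (3 counts, counting error only). Elsewhere CPM is the count per 1000000 counts of a TMM-scaled library, unless stated. The 7 macrophage markers were all expressed, summing to 3572 to 10579.7 CPM, while the summed T cell, B cell and epithelial markers were each at most 0.264 CPM and fibroblast markers at most 1.25 CPM. The 6 genes induced by IFNγ summed to 929 ± 62.7 CPM (SD, n = 3, as for all values after ± below) in 65–79*SE and 1082 ± 43.7 in 65–79*PE of IFNγ replicates 1–3. They were at 28.1 ± 1.95 CPM in the libraries labelled 65–79*SE, replicates 4–6, of the IFNγ table, beside 28.2 ± 1.15 in PBS and 803 ± 93.7 in 65–79*PE of that set. Those 3 libraries thus showed no IFNγ response above PBS. The 6 genes induced by Il-4 were at most 2.23 CPM in any PBS library of the Il-4 table and 45.6 to 142 CPM in its peptide libraries. PBS carried neither cytokine's response, so a contrast with PBS holds the cytokine and the peptide together.

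The first question was how much of the histone mRNA the libraries held. In the IFNγ table the 70 genes summed to 164, 156 and 155 CPM in PBS replicates 1–3 and to 5327, 4171 and 2595 CPM in PBS replicates 4–6. In 65–79*SE they summed to 69.0, 76.8 and 72.0 CPM in replicates 1–3 and 7159.6, 7169 and 6422 CPM in replicates 4–6. In 65–79*PE they summed to 66.6, 63.7 and 73.7 CPM and to 6019, 4253 and 4557 CPM. The lowest library of replicates 4–6 was therefore above the highest of replicates 1–3 in each group by more than 10 times. In the Il-4 table, PBS held 106, 67.1 and 54.3 CPM in replicates 1–3 and 14514, 8114 and 5306 CPM in replicates 4–6. The values were 140.4, 93.5 and 77.0 against 3424, 6122 and 5847 CPM in 65–79*SE, and 132, 87.2 and 75.9 against 9244, 7513 and 6352 CPM in 65–79*PE. The groups of the 2 label sets did not overlap in either table. The 70 genes took 0.00553% to 0.0187% of all counts in replicates 1–3 and 0.236% to 1.55% in replicates 4–6. From bulk RNA, fewer cells in S phase and less histone mRNA per cell cannot be told apart.

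**Figure D1:**
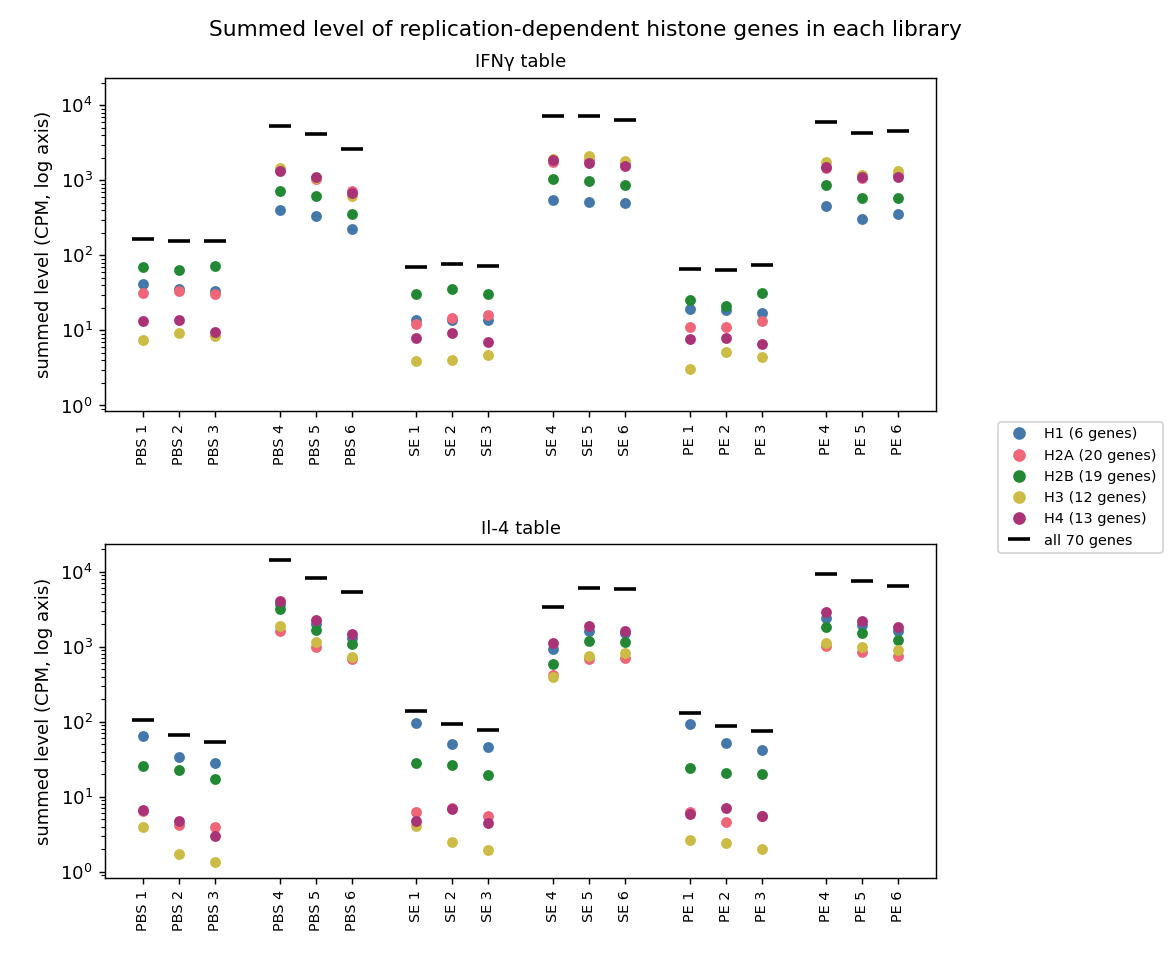
Summed level of the histone genes of each type (points) and of all 70 genes (bars) in each library, in CPM on a log axis, with the IFNγ table above and the Il-4 table below. Every library of replicates 4–6 lies above every library of replicates 1–3, with the IFNγ libraries at 63.7 to 164 CPM and 2595 to 7169 CPM for all 70 genes.

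Tested gene by gene, nearly all members were higher in replicates 4–6. A gene was called at an adjusted p-value under 0.05 over all genes tested and a fold change over 1.5 (edgeR quasi-likelihood test, Benjamini-Hochberg adjustment). Of the 70 genes in the IFNγ table, 66 passed the filter on low counts, and 65, 66 and 65 of them were called higher in PBS, 65–79*SE and 65–79*PE, where 28.1%, 30.2% and 30.9% of all genes tested were called higher. For the Il-4 table, 61 passed, and 61, 60 and 61 were called higher, with 27.9%, 34.4% and 32.1% of all genes. None was called lower. The median log2 change was 6.29, 7.84 and 7.74 in the IFNγ table and 10.09, 9.24 and 9.57 in the Il-4 table, against medians of all genes between 0.00 and 0.08. With genes at 0 counts in replicates 1–3 set to the bound that 3 counts per library allow, these medians were 6.29, 7.82, 7.74, 9.87, 9.14 and 9.52. Many members passed the filter only through replicates 4–6 and so had to differ. Of the 43 that passed in IFNγ replicates 1–3 alone, 42, 43 and 42 were called higher, with medians of 5.59, 7.55 and 6.90, and of the 13 that passed in Il-4 replicates 1–3 alone, 13, 12 and 13 were, with medians of 7.03, 5.20 and 6.09. Not tested in the IFNγ table were Hist1h1t, Hist1h2aa, Hist2h2aa1 and Hist2h3c1, and in the Il-4 table also Hist1h2ao, Hist1h2ap, Hist1h2ba, Hist1h2bq and Hist1h2br.

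The genes for core histones H3 and H4 went from near 0 to high levels. Hist1h4d (chr13:23581598-23582735, + strand, 1 exon), which codes for H4, was at 0.224, 0.121 and 0.249 CPM in PBS replicates 1–3 of the IFNγ table and at 148, 123 and 86.5 CPM in replicates 4–6, a log2 difference of 9.20 (SE 0.26). The Il-4 table had it at 0.444, 0.200 and 0.0743 CPM in PBS replicates 1–3 and 825, 429 and 288 CPM in replicates 4–6, a log2 difference of 11.06 (SE 0.53). In both tables Hist1h4d passed the filter only through replicates 4–6 and so had to differ, and these values only describe its levels. Hist1h3f (chr13:23544052-23545312, + strand, 1 exon), an H3 gene, was at 0.280, 0.242 and 0.405 CPM in PBS of the IFNγ table and rose to 144, 116 and 70.3 CPM, a log2 difference of 8.47 (SE 0.31, adjusted p = 9.99e-15). Hist1h3e, another H3 gene, went from 0.112, 0.151 and 0.280 CPM to 117, 99.3 and 62.8 CPM in the same libraries. Hist4h4 (chr6:136801553-136804415, − strand, 1 exon), the H4 gene outside the main clusters, went from 0.252, 0.0606 and 0.218 CPM to 82.0, 72.4 and 45.6 CPM. In 65–79*SE replicates 1–3 of the IFNγ table it had 0 counts in all 3 libraries and was at 119, 118 and 106 CPM in replicates 4–6, at least 1312-fold higher when 3 counts per library are allowed. The same bound was at least 673-fold for Hist1h1a in 65–79*SE and at least 539-fold for the H2A gene Hist1h2ak in 65–79*PE. Hist1h3e, Hist4h4, Hist1h1a and Hist1h2ak also passed the filter of the IFNγ table only through replicates 4–6.

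The genes for H1, H2A and H2B differed in the same direction. Hist1h1e (chr13:23620629-23622558, − strand, 1 exon, sharing exonic bases with Hist1h2be) codes for a linker histone and was at 1.54, 1.12 and 1.56 CPM in PBS replicates 1–3 of the IFNγ table. It was at 127, 101 and 76.7 CPM in replicates 4–6, a log2 difference of 6.17 (SE 0.20, adjusted p = 2.11e-15). Hist1h2bb (chr13:23746734-23747241, + strand, 1 exon), an H2B gene whose transcript ends just after the stem-loop, was at 0.644, 0.576 and 1.03 CPM and at 50.004, 45.0 and 23.8 CPM in the same libraries. Il-4 libraries held 0.161, 0.120 and 0.0372 CPM of it in PBS replicates 1–3 and 523, 262 and 159 CPM in replicates 4–6. There Hist1h2bb passed the filter only through replicates 4–6. The label sets do not overlap for either gene. Hist2h2aa2, with 16.3, 17.6 and 15.0 CPM in PBS replicates 1–3 of the IFNγ table, was at 349, 276 and 228 CPM in replicates 4–6, a log2 difference of 4.12 (SE 0.14).

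A few members had far smaller differences between the label sets than the rest. Hist2h2be, an H2B gene, was at 7.20, 6.54 and 6.32 CPM in PBS replicates 1–3 of the IFNγ table and 8.08, 7.61 and 5.24 CPM in replicates 4–6, a log2 difference of 0.06 (SE 0.15, adjusted p = 0.733) whose groups overlap. In PBS of the Il-4 table it was at 9.56, 11.1 and 9.40 CPM and at 20.6, 18.5 and 15.7 CPM, a log2 difference of 0.87 (SE 0.15, adjusted p = 8.24e-05). It was the member with the smallest mean log2 difference over the 6 groups, 0.85, followed by the H2A gene Hist3h2a at 1.28 and the H1 gene Hist1h1c at 3.17, while the median over 61 members tested in both tables was 8.32. Hist3h2a (chr11:58954685-58956830, + strand, 1 exon, sharing exonic bases with Trim17) was at 2.58, 2.48 and 2.19 CPM in PBS replicates 1–3 of the Il-4 table and 5.00, 5.47 and 5.24 CPM in replicates 4–6. Hist1h1c (chr13:23738808-23740367, + strand, 1 exon) was already at 60.7, 33.5 and 27.4 CPM in PBS replicates 1–3 of the Il-4 table, the highest of the 70 genes there, and at 1113, 694 and 443 CPM in replicates 4–6. The H2B gene Hist1h2bc was at 13.1, 10.1 and 6.47 CPM and at 254, 155 and 114 CPM in these libraries.

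**Figure D2:**
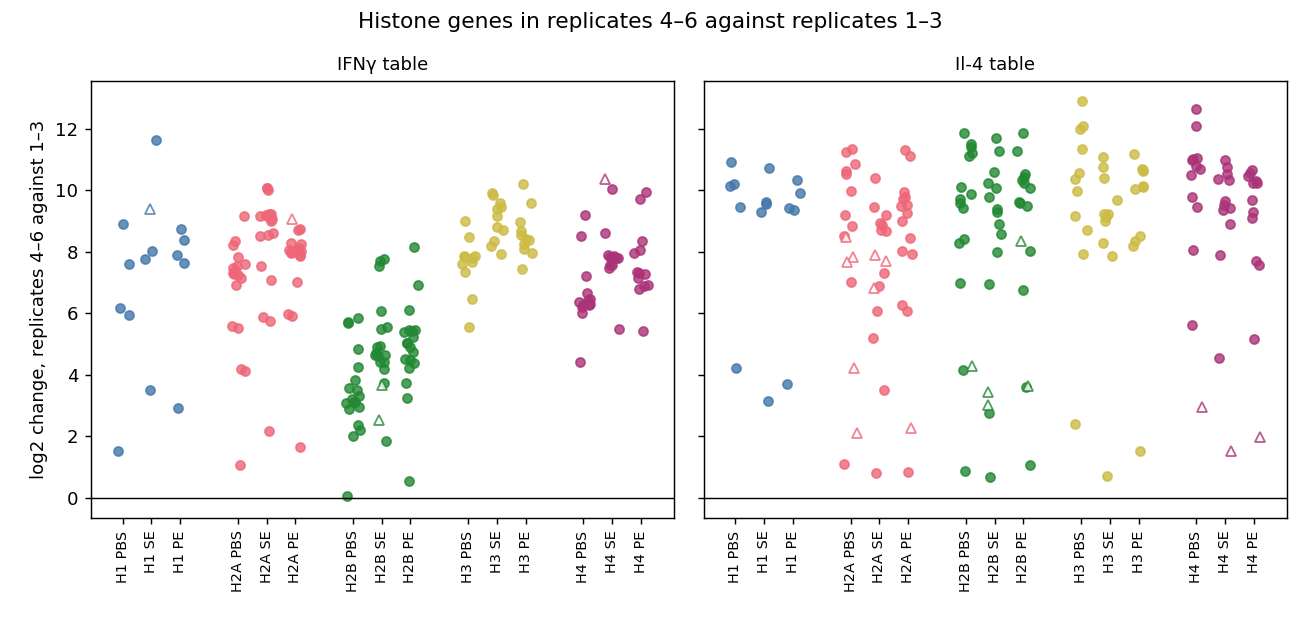
Log2 difference of replicates 4–6 against 1–3 for each tested gene, by histone type and group, in the IFNγ table (left) and the Il-4 table (right). Hollow triangles are lower bounds for genes with 0 counts in every library of replicates 1–3, other genes with only 1 to 3 counts there have fitted values that depend on the prior count, and in the IFNγ table H2B genes sit lowest, with a median of 3.22 in PBS.

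The types did not move by the same amount, so the make-up of the histone signal differed between the label sets. In PBS of the IFNγ table the median log2 difference was 3.22 for 19 H2B genes, 6.17 for 5 H1 genes, 6.36 for 13 H4 genes, 7.29 for 18 H2A genes and 7.80 for 11 H3 genes. Most of these H2A genes, but few of the H2B genes, passed the filter only through replicates 4–6 and so had to differ. The order of the types therefore depends in part on the filter. In PBS of the Il-4 table the medians were 9.65 for 16 H2B genes, 10.12 for H1, 10.25 for 16 H2A genes, 10.36 for H3 and 10.68 for H4. Most members tested there passed the filter only through replicates 4–6, and the medians are not compared between the tables. As a share of the histone counts in PBS of the IFNγ table, H2B held 43.3% ± 3.02 in replicates 1–3 and 14.0% ± 0.629 in replicates 4–6. H3 held 5.29% ± 0.653 and 25.7% ± 2.06, and H4 7.80% ± 1.43 and 25.7% ± 0.554. In PBS replicates 4–6 of the IFNγ table the H3 and H4 genes together thus made up more of the signal than H1 and H2B did. In those of the Il-4 table, where H2B held 21.1% ± 0.780, the H3 and H4 genes made up less than H1 and H2B. In PBS of the Il-4 table H1 held 54.4% ± 4.77 in replicates 1–3 and 24.8% ± 0.532 in replicates 4–6, while H3 went from 2.93% ± 0.717 to 13.7% ± 0.655 and H4 from 6.27% ± 0.713 to 28.3% ± 0.141. Hist1h1c alone held 52.5%, 59.9% and 60.5% of the histone counts in PBS, 65–79*SE and 65–79*PE of Il-4 replicates 1–3, and 8.19%, 11.3% and 10.3% in replicates 4–6. Per kilobase of exon it was also the highest gene in Il-4 PBS replicates 1–3, at 25.98 CPM per kb, followed by Hist1h2bc at 8.54. In replicates 4–6 the highest per kilobase were Hist1h4f, Hist2h2bb and Hist1h4k, at 845, 783 and 720.1 CPM per kb.

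**Figure D3:**
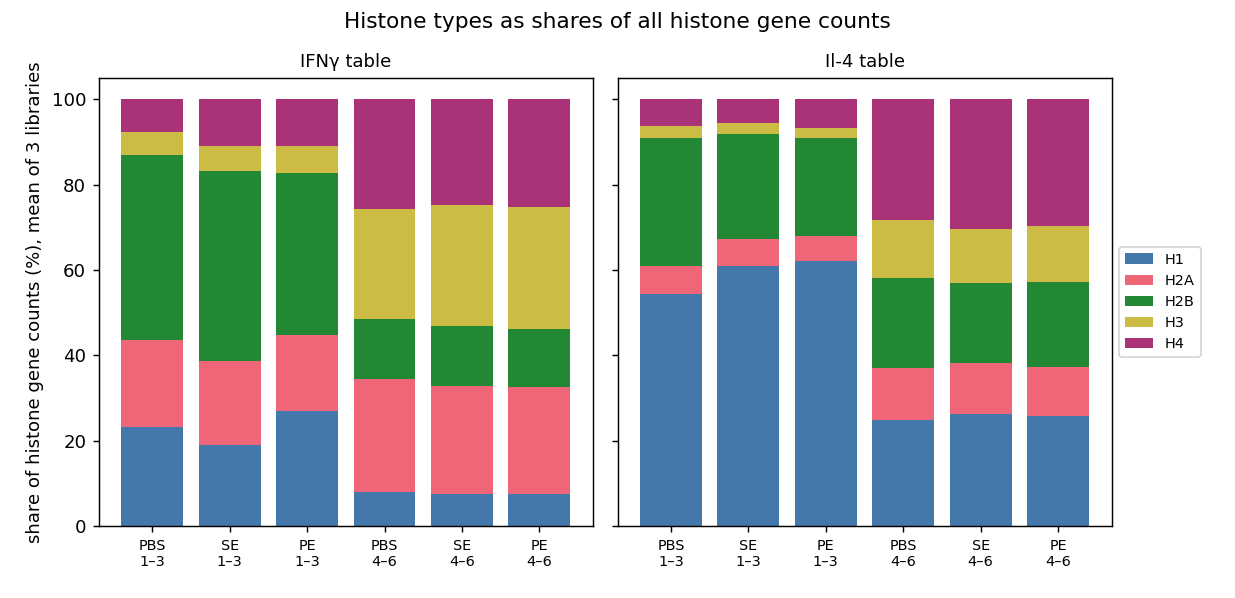
Share of each histone type in all counts of the 70 genes (%), as the mean of 3 libraries per group and label set, in the IFNγ table (left) and the Il-4 table (right). In PBS of the Il-4 table H1 takes 54.4% in replicates 1–3 and 24.8% in replicates 4–6, and H3 and H4 take more in replicates 4–6 in every group.

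The histone signal of replicates 1–3 was split unevenly by the annotated end of the transcript in the Il-4 table. There the 22 genes annotated 100 bases or more past the stem-loop held 67.4%, 72.2% and 73.6% of the summed histone CPM in PBS, 65–79*SE and 65–79*PE. The 22 genes that end within 100 bases of it held 2.21%, 1.45% and 2.40%, and the 26 without a match held 30.4%, 26.3% and 24.0%. Hist1h1c is in the first class, and Hist2h2be and Hist1h2bc are in the last, so these shares rest on few genes. The 3 together held 79.8% to 82.7% of the counts. The median log2 difference between label sets in these classes was 9.52, 10.85 and 9.998 in PBS of the Il-4 table. In PBS of the IFNγ table the classes held 37.0%, 24.1% and 38.8% of the CPM of replicates 1–3. The class that ends near the stem-loop holds some near copies of other genes, which the Il-4 table hardly counted. Hist2h2aa2, in that class, had a mean of 16.3 CPM in PBS replicates 1–3 of the IFNγ table and 0 in the Il-4 table. The annotated end and the counting of shared reads cannot be told apart in these shares, which are not compared between the tables. Genes with long annotated ends, such as Hist4h4, were also near 0 in replicates 1–3, at 0.323, 0.120 and 0.0743 CPM in PBS of the Il-4 table.

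RNAs that lack a poly(A) tail for other reasons moved with the histone genes, and genes of proliferation did not to that extent. The 12 other RNAs without a tail, among them Rn7sk, a regulator of RNA polymerase II elongation, and Rmrp and Rpph1, the RNAs of RNase MRP and RNase P, summed to 5.46 to 63.6 CPM in IFNγ replicates 1–3 and 158104 to 247846 CPM in replicates 4–6. Those of the Il-4 table were 5.91 to 65.7 and 42308 to 66049 CPM. All 12 were called higher in replicates 4–6 in every group of both tables, where 27.9% to 34.4% of all genes tested were. Most of the 12 passed the filter of the IFNγ table only through replicates 4–6 and so had to differ. For these RNAs the values only describe levels. The 26 genes of DNA replication, which work in the same phase of the cycle as the histones, summed to 911 to 1337 CPM in IFNγ replicates 1–3 and 662 to 1183 CPM in replicates 4–6, and to 1273 to 1875 and 785 to 2058 CPM in the Il-4 table. Their ranges overlap. Of the 26, 2 were called higher in replicates 4–6 and 9 lower in IFNγ PBS, and 4 higher and 5 lower in Il-4 PBS. Of the 15 mitosis genes, 2 were higher and 6 lower in PBS of the IFNγ table and 10 higher and 0 lower in PBS of the Il-4 table. Their sums were 545 to 738 CPM in IFNγ replicates 1–3 and 465.7 to 1154 CPM in replicates 4–6, which overlap, and 698 to 1029.9 CPM and 1094 to 3065 CPM in the Il-4 table, which do not. Protein-coding genes took 85.3% ± 0.155 of the counts in IFNγ PBS replicates 1–3 and 67.1% ± 1.54 in replicates 4–6, and 96.7% ± 1.11 and 83.3% ± 4.41 in the Il-4 table. These levels in replicates 4–6 go against the stated selection of poly(A) RNA, and whether those libraries were prepared in another way was not tested. The label set and the content of RNA without a poly(A) tail cannot be told apart, and the part of proliferation was not tested.

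The machinery of histone mRNA moved less than the histone genes. Of 20 genes for the synthesis, processing and decay of histone mRNA, 4 were called higher and 3 lower in replicates 4–6 of IFNγ PBS, with a median log2 difference of −0.04, and 5 higher and 3 lower in Il-4 PBS, with a median of 0.27. Npat, the coactivator of histone gene transcription, was at 13.03 ± 3.14 and 39.7 ± 3.20 CPM in PBS replicates 1–3 and 4–6 of the IFNγ table, a log2 difference of 1.60 (SE 0.13, adjusted p = 1.72e-09). Slbp was at 20.2 ± 3.10 and 25.98 ± 3.23 CPM in the same groups, a log2 difference of 0.36 that was under the fold threshold. Pcna, the replication clamp, was at 134 ± 23.9 and 116 ± 21.9 CPM there, within the spread of the libraries. Mki67, a marker of cycling cells, was at 154 ± 12.7 and 221 ± 56.4 CPM there and at 235 ± 13.4 and 579 ± 218 CPM in Il-4 PBS, where it was called higher with a log2 difference of 1.30. Of the variant histones, 0 of 10 tested were called higher and 6 lower in IFNγ PBS, while 4 were higher and 2 lower in Il-4 PBS. H2afz, a variant of H2A, was at 173 ± 15.2 and 115 ± 4.97 CPM in IFNγ PBS and at 191 ± 7.43 and 313 ± 50.1 CPM in Il-4 PBS, so its direction differed between the tables.

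Within the label sets, the comparisons of PBS and peptides ask how the treated cells differed from PBS with the label set held fixed. In IFNγ replicates 1–3 the histone genes were lower with either peptide than with PBS. Of 43 genes tested, 27 were called lower in 65–79*SE and none higher, where 22.8% of all 15343 genes were called in either direction and 10.2% lower. In 65–79*PE 28 were called lower and none higher, where 19.8% of all genes were called and 9.54% lower. The median log2 change of the 43 genes was −0.91 and −1.12, and that of all genes −0.01 and 0.00. Both contrasts share the PBS libraries. Without replicate 3 of each group the first count was 17. By type, 3 of 3 H1, 4 of 5 H2A, 16 of 16 H2B, 2 of 8 H3 and 2 of 11 H4 genes were called lower in 65–79*SE, and 3 of 3, 3 of 5, 15 of 16, 2 of 8 and 5 of 11 in 65–79*PE. Most H3 and H4 genes tested were at low levels, where a change is harder to call. The H3 sum was 8.34 CPM in PBS, 4.22 in 65–79*SE and 4.19 in 65–79*PE. In that order H4 summed to 12.4, 8.03 and 7.44 CPM and H2B to 68.3, 32.2 and 26.1 CPM. The H2B genes Hist1h2bq and Hist1h2br are near copies with nearly the same counts in each of these libraries.

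Hist1h1c, the most abundant member of these libraries, was at 38.4, 32.7 and 31.5 CPM in PBS, 12.99, 12.4 and 12.4 CPM in 65–79*SE and 18.4, 17.3 and 16.2 CPM in 65–79*PE. The 3 groups did not overlap. The log2 change was −1.41 (SE 0.08, adjusted p = 8.94e-09) for 65–79*SE and −0.94 (SE 0.08, adjusted p = 6.50e-07) for 65–79*PE against PBS. Hist2h2aa2 (chr3:96239749-96240276, − strand, 1 exon), an H2A gene, was at 16.3, 17.6 and 15.0 CPM in PBS, 6.65, 7.11 and 7.29 CPM in 65–79*SE and 5.02, 4.89 and 6.11 CPM in 65–79*PE. Its log2 change in 65–79*PE was −1.57 (SE 0.11, adjusted p = 9.79e-08). Hist1h2bc went from 15.2, 15.7 and 15.1 CPM in PBS to 7.95, 7.26 and 7.15 CPM in 65–79*SE and 5.87, 5.17 and 6.77 CPM in 65–79*PE. Hist2h2be, with almost no difference between label sets in PBS, was at 2.30, 1.83 and 2.31 CPM in 65–79*SE and 3.11, 3.06 and 2.83 CPM in 65–79*PE of replicates 1–3, log2 changes of −1.61 (SE 0.14) and −1.12 (SE 0.13) against PBS. Both peptide groups lay below every PBS library for these 4 genes. The H4 gene Hist1h4h was at 1.62, 1.42 and 1.25 CPM in PBS, 1.02, 0.958 and 0.980 in 65–79*SE and 1.06, 0.765 and 0.849 in 65–79*PE, and was called lower in 65–79*PE (log2 change −0.65, SE 0.22, adjusted p = 0.0253) but not in 65–79*SE (−0.51, SE 0.21, adjusted p = 0.0642).

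Other RNAs without a tail were lower in the same peptide libraries. Of the 12, 5 passed the filter in IFNγ replicates 1–3, and Rn7s1, Rn7s2 and Rn7sk were called lower with each peptide, with a median log2 change of the 5 of −1.93 in 65–79*SE and −1.62 in 65–79*PE. The sum of all 12 was 63.6, 42.7 and 44.8 CPM in PBS, 15.4, 18.6 and 7.55 CPM in 65–79*SE and 5.46, 28.8 and 10.6 CPM in 65–79*PE. The DNA replication genes did not fall with the histone genes in 65–79*SE, where 5 of 26 were called higher and none lower, and in 65–79*PE 1 was higher and 6 lower. Of 15 mitosis genes, 2 were lower in 65–79*SE and 2 higher in 65–79*PE. Of the variant histones, H1f0 and H3f3a were called lower in 65–79*SE, with log2 changes of −0.76 (SE 0.08) and −0.66 (SE 0.07), and H3f3a also in 65–79*PE, with −0.89 (SE 0.07). The part of either RNA content or proliferation in the histone result was not tested. Between the peptides, no histone gene of the 43 was called in IFNγ replicates 1–3, where 6.08% of all genes were, and DESeq2 called 0. An unadjusted p under 0.05 was found for 7. The share of all genes at that unadjusted p is not given, so this count is not read as particular to histone genes. Adjusted p-values were under 0.05 for 3 genes whose change stayed under 1.5-fold, Hist1h1c (log2 change −0.47, SE 0.09, adjusted p = 0.00142) and Hist2h2be (−0.50, SE 0.14, adjusted p = 0.022), both lower in 65–79*SE, and Hist2h2aa2 (0.38, SE 0.12, adjusted p = 0.0312), higher in it.

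**Figure D4:**
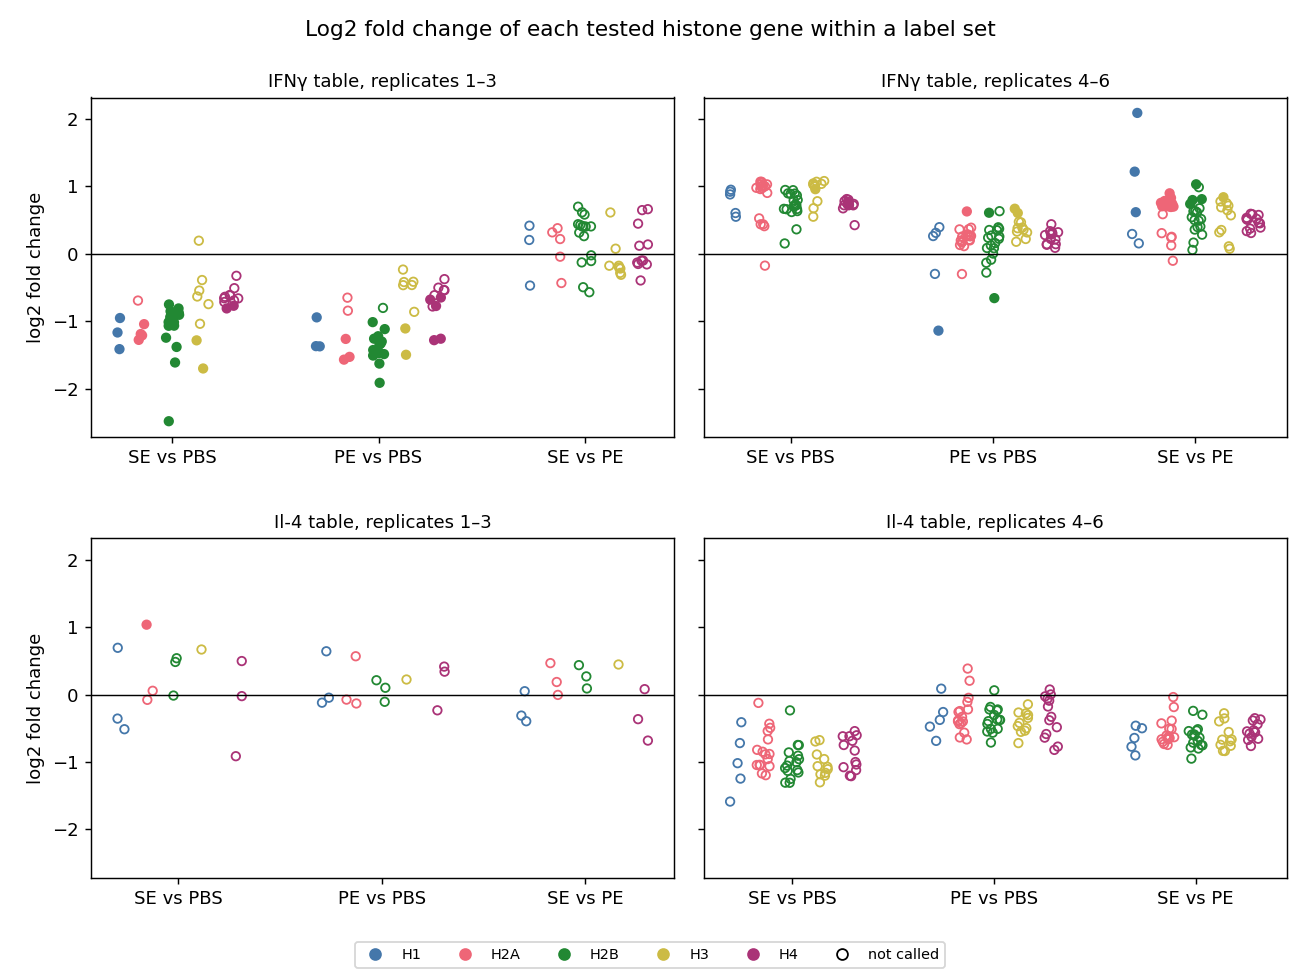
Log2 change of each tested histone gene by type within replicates 1–3 (left) and 4–6 (right) of the IFNγ table (top) and the Il-4 table (bottom), with called genes filled. In IFNγ replicates 1–3 the points against PBS lie below 0 but for 1 H3 gene in 65–79*SE, with 27 and 28 genes called lower, and in Il-4 replicates 4–6 none is called.

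In IFNγ replicates 4–6 few histone genes were called against PBS. In the libraries labelled 65–79*SE, which carry no IFNγ response, 2 of 66 genes were called higher than in PBS, the H3 gene Hist1h3f and the H4 gene Hist1h4d, and none lower, where 0.72% of 15563 genes were called in either direction and 0.238% higher. The median log2 change was 0.79, and 62 genes had an unadjusted p under 0.05. The count depended on the analysis, being 30 with DESeq2, 55 without the filter, and 38, 0 and 0 without replicate 4, 5 or 6. The share of all genes under these alternatives or at that unadjusted p is not given, so these counts are not read as particular to histone genes. Hist1h3f was at 144, 116 and 70.3 CPM in PBS and 219, 219.9 and 201 CPM in the libraries labelled 65–79*SE, which lay above all PBS libraries. Its log2 change was 0.96 (SE 0.21, adjusted p = 0.0481), and the call was lost without replicate 5 or 6 and with a minimum of 10 counts in every library. PBS replicate 6 had the lowest histone sum of the set, 2595 CPM, and also the lowest sum of DNA replication genes, 662 CPM, beside 990.2 and 924 in PBS replicates 4 and 5 and 1183, 1060.1 and 1025 in the libraries labelled 65–79*SE.

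For 65–79*PE against PBS in the same set, 4 of 66 genes were called higher and 2 lower, where 10.8% of all genes were called, 6.16% higher and 4.66% lower. These counts lie near the shares of all genes and are not read as a result about histone genes. Hist1h3e was at 117, 99.3 and 62.8 CPM in PBS and 185, 126 and 134 CPM in 65–79*PE, a log2 change of 0.67 (SE 0.19, adjusted p = 0.0225). Hist1h3f, Hist1h2bg and Hist2h2ab were the other genes called higher, with log2 changes of 0.61, 0.61 and 0.63. The H1 gene Hist1h1a (chr13:23763666-23764406, + strand, 1 exon) was at 42.2, 37.8 and 11.5 CPM in PBS and 20.0, 9.29 and 12.5 CPM in 65–79*PE, so that the groups overlap, with a log2 change of −1.14 (SE 0.38, adjusted p = 0.0483). Hist2h2be was at 8.08, 7.61 and 5.24 CPM in PBS and 4.71, 4.97 and 3.66 CPM in 65–79*PE, a log2 change of −0.66 (SE 0.17, adjusted p = 0.0154). Fitted without the libraries labelled 65–79*SE, 1 gene was called higher and 1 lower, and the calls of Hist1h3e and Hist1h1a were lost. That of Hist1h3e was also lost without replicate 5 or 6, and that of Hist1h1a without replicate 4 or 5. Without replicate 5 the count was 0, and without replicate 6 it was 2. Of the 15 mitosis genes, 10 were called higher in 65–79*PE, and of 26 DNA replication genes 3 were lower.

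Between the libraries labelled 65–79*SE and 65–79*PE of this set, 20 of 66 histone genes were called higher in the former and none lower, where 13.8% of all genes were called and 5.91% higher. They were 3 H1, 12 H2A, 4 H2B and 1 H3 genes, and none of the 13 H4 genes was among them. Hist1h1a had the largest change, at 67.8, 55.2 and 52.9 CPM against 20.0, 9.29 and 12.5 CPM, a log2 change of 2.09 (SE 0.39, adjusted p = 0.00157) with no overlap. Hist1h2bc was at 102, 104 and 89.9 CPM against 67.0, 51.7 and 52.2 CPM, a log2 change of 0.80 (SE 0.16, adjusted p = 0.00249). The count was 33, 2 and 31 without replicate 4, 5 or 6. In the same contrast 10 of 26 DNA replication genes were called higher and none lower, as were the variant histones H1f0, H3f3a and H2afv, and 2 of 12 other RNAs without a tail. The IFNγ response differs between the 2 groups as well, at 28.1 and 803 CPM for the 6 genes, so the peptide, the response and these genes cannot be told apart.

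In the Il-4 table few histone genes were called within a label set, as was the case for all genes tested. In replicates 1–3 only 13 of the 70 genes passed the filter. Against PBS, 1 of them was called higher in 65–79*SE, where 6.44% of all genes were called and 3.07% higher, and 0 in 65–79*PE, where 3.95% were. That gene, Hist1h2al, was at 2.18, 1.08 and 1.23 CPM in PBS, 2.43, 3.34 and 3.14 CPM in 65–79*SE and 2.39, 1.33 and 2.69 CPM in 65–79*PE. Its log2 change in 65–79*SE was 1.04 (SE 0.33, adjusted p = 0.0488), and without replicate 2 or without replicate 3 the count was 0. It is annotated as a processed pseudogene with 80.8% of its 100-base words in no other gene, and its reads are uncertain as reads of functional H2A genes. Hist1h1c was not called, at 60.7, 33.5 and 27.4 CPM in PBS, 95.8, 49.9 and 44.6 CPM in 65–79*SE and 91.8, 50.3 and 41.1 CPM in 65–79*PE. The groups overlap, and in each of them replicate 1 was the highest. Against PBS its log2 change was 0.70 (SE 0.38) in 65–79*SE, with an adjusted p of 0.212, and 0.64 (SE 0.38) in 65–79*PE, with an adjusted p of 0.291, and both were called with the replicate number as a block. The counts at an unadjusted p under 0.05 were 1 in 65–79*SE and 0 in 65–79*PE against PBS and 0 between the peptides, where 0.0% of all genes were called, and DESeq2 called 1, 0 and 0.

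In Il-4 replicates 4–6 none of 61 histone genes was called in any of the 3 contrasts, where 1.05%, 2.24% and 0.0% of all genes were called for 65–79*SE against PBS, 65–79*PE against PBS and 65–79*SE against 65–79*PE. The median log2 changes were −0.999, −0.37 and −0.62, and 44, 4 and 3 genes had an unadjusted p under 0.05. DESeq2 called 5, 1 and 0 genes, all lower. The shares of all genes by these 2 measures are not given, so the counts are not read as particular to histone genes. The libraries of 1 group were far apart, and the histone sums moved with those of proliferation genes across them. PBS replicate 4 had the highest sums of the set for histone genes (14514 CPM), DNA replication (2058 CPM) and mitosis (3065 CPM), and 65–79*SE replicate 4 had the lowest of all 3 (3424, 785 and 1094 CPM). Hist1h4d was at 825, 429 and 288 CPM in PBS, 259.7, 409.7 and 346 CPM in 65–79*SE and 622, 493.3 and 398 CPM in 65–79*PE. The groups overlap, and PBS alone spans nearly the whole range. The DNA replication genes had a median log2 change of −0.57 in 65–79*SE against PBS, with 1 of 26 called lower. The part of proliferation in the spread of histone levels was not tested.

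The changes of the 2 label sets were tested against each other in 1 model of the 18 libraries of a table. For 65–79*SE against PBS in the IFNγ table the change differed for 36 of 66 histone genes at an adjusted p under 0.05, each with the higher change in replicates 4–6, where 35.7% of all 16845 genes differed and 18.9% in that direction. For 65–79*PE against PBS 23 differed, also all higher, where 11.5% of all genes did and 7.87% in that direction. Without replicate 1 of the groups the counts were 22 and 12, and the first rests on the libraries labelled 65–79*SE. Hist1h1c is an example, with log2 changes in 65–79*PE of −0.94 (replicates 1–3) and 0.40 (replicates 4–6). For the contrast of peptides 2 of 66 differed, Hist1h1c and Hist2h2be, both higher, where 28.8% of all genes did and 12.4% in that direction. Of the 61 in the Il-4 table, 1 differed for 65–79*SE against PBS, being lower, where 4.39% of genes did and 0.917% in that direction, and 0 in each of the other contrasts, where 0.00705% and 0.0% did.

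Histone genes of 1 type are near copies of each other, and the 2 tables treated such genes differently. In the IFNγ table the pair Hist1h2ao and Hist1h2ap had 24585 and 24629 counts over 18 libraries and the pair Hist1h2bq and Hist1h2br had 30001 and 31235. The same genes had 34, 26, 17 and 44 counts in the Il-4 table. The study states that only reads with 1 alignment were counted, and high counts for copies with few or no words of their own in the IFNγ table do not sit with that. Hist2h2aa2, whose transcript holds no 100-base word that is found in no other gene, was at 349, 276 and 228 CPM in PBS replicates 4–6 of the IFNγ table and at 2.53, 1.94 and 2.32 CPM in those of the Il-4 table. Its near copy Hist2h2aa1 had 6 and 0 counts in all. The level in the Il-4 table relative to the IFNγ table in PBS replicates 4–6, among members at 5 CPM or more in the latter, had a median of 0.0103 for 10 of the 11 genes with under 15% of their words to themselves, 1.86 for 30 genes with 15% to 75% and 4.18 for 23 genes with 75% or more. Genes with under 15% held 20.9% of the histone CPM of replicates 4–6 in the IFNγ table and 1.87% in the Il-4 table. Levels of single members, and of types, are therefore not compared between the tables, and where members share words a count is uncertain as that of 1 gene. Members are not replicates, since a read from a shared stretch can be counted for one gene or another of the type.

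**Figure D5:**
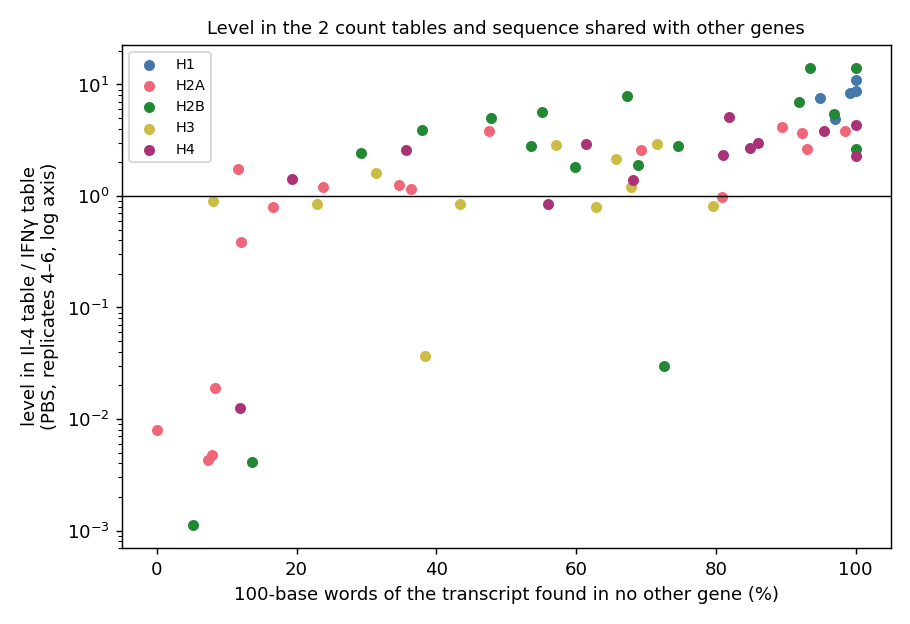
Level of each histone gene in the Il-4 table divided by that in the IFNγ table (PBS replicates 4–6, log axis) against the share of 100-base words of its transcript found in no other gene (%), for genes at 5 CPM or more in the IFNγ table. Genes with under 15% lie mostly far below 1, with a median of 0.0103, and those with 75% or more mostly above it, with a median of 4.18.

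The promoters of the types differed in the motifs they held. In RefSeq GRCm38.p6 promoters (250 bases before to 50 after the start), found for 61 of the 70 genes with 2 for Hist1h2be, CCAAT, the letters bound by NF-Y, was present on either strand in all 6 of H1, 17 of H2A, 17 of H2B and 10 of H3 and in 3 of 12 of H4, against 37.4% of 32851 promoters. ATGCAAAT, the octamer bound by the POU factors of which one drives H2B transcription in S phase, was present in 7 of 17 H2A and 7 of 17 H2B promoters and in none of the others, against 1.74%. AAACACA was present in 5 of 6 H1 promoters, 2 of 17 of H2A, 2 of 17 of H2B and none of H3 or H4, against 7.18%. TATAAA was present in 4, 11, 8, 4 and 8 promoters of H1, H2A, H2B, H3 and H4, against 13.6%. H2A and H2B genes often lie head to head and can share 1 such stretch. These matches are descriptions of the letters in a window.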

How the data were processed

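RNA of RAW264.7 cells was sequenced as 100-base single-end reads from libraries that the study's methods state to be made with a poly(A)-selecting kit, which the content of replicates 4–6 goes against. The deposited values are raw read counts per gene, which the authors made with featureCounts of the Rsubread package from uniquely aligned reads and GENCODE M12. The submitters' processing notes name GRCm38.p5, DESeq2 1.16.1 and R 3.4.1. The aligner and the strand setting are not given in the sources used here, and the IFNγ table holds counts for gene copies with no sequence of their own, against the stated use of unique reads. Each table was filtered with filterByExpr, scaled by TMM and fitted in edgeR 4.0.16 (R 4.3.3) by its quasi-likelihood method, within replicates 1–3 and 4–6 (9 libraries a fit, all 3 groups), and in 1 model of 18 libraries for differences between label sets. Adjusted p-values are Benjamini-Hochberg values over all genes tested. CPM were TMM-scaled over the 18 libraries of a table. Alternatives were DESeq2 1.42.0, other size factors and filters, a replicate block and leaving out each replicate. The steps were tested on simulated data: with libraries like IFNγ replicates 1–3, on 15343 genes, 83% of 100 2-fold and 99% of 100 4-fold changes were recovered with 6 false calls.

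The members, the gene lists and the genes named were chosen with earlier results of these data known. Members were taken by symbol. Named by rule were the 2 members of each type with the highest mean CPM, the 3 highest in replicates 1–3, the called members with the largest rise and fall of each contrast at a mean of 5 CPM or more, and the 3 members with the smallest and the 3 with the largest difference between label sets. Members named besides these were chosen after their values were seen. Same-numbered libraries were taken as pairs where the correlation of their deviations was over 0.1 in each of the 3 pairs, which held for the peptide groups of Il-4 replicates 1–3 (correlations 0.389, 0.143 and 0.145) and for PBS and 65–79*PE of Il-4 replicates 4–6 (0.356, 0.19 and 0.395). PBS and 65–79*SE of Il-4 replicates 1–3 narrowly missed it (0.264, 0.154 and 0.0988). GENCODE M21 (GRCm38) gave coordinates, biotypes, transcripts for the stem-loop search (at least 5 of 6 stem pairs) and the 100-base words used to find shared sequence. The authors' count tables hold no fold changes or p-values.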

Additional observations from a re-analysis of the deposited data

Results flagged for a closer look

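For the 16 members named by rule, the change with treatment in replicates 4–6 was tested against that in replicates 1–3 in each of 3 contrasts of both tables, 96 tests in all, and 17 passed an adjusted p of 0.05 over all genes (edgeR quasi-likelihood test). Of all genes, 35.7% differed for 65–79*SE against PBS, 11.5% for 65–79*PE against PBS and 28.8% between the peptides in the IFNγ table. The shares in the Il-4 table were 4.39%, 0.00705% and 0.0%. Some of the 16 were named for their changes in these same data. In the IFNγ table the log2 change of 65–79*SE against PBS was higher in replicates 4–6 than in replicates 1–3 by 1.99 for Hist1h1c, 1.58 for Hist1h1e, 1.67 for Hist1h2al, 1.83 for Hist1h2bb and 1.70 for Hist1h2bc. It was also higher by 1.30 for Hist1h4h, 1.62 for Hist2h2aa2, 1.79 for Hist2h2be and 6.38 for Hist4h4. The value of Hist4h4 rests on 0 counts in 65–79*SE replicates 1–3 and depends on the prior count. All 9 rest on the libraries labelled 65–79*SE, replicates 4–6, which carry no IFNγ response. For 65–79*PE against PBS, which does not use those libraries, the change was higher in replicates 4–6 by 1.38 for Hist1h1c, 1.72 for Hist1h1e, 1.75 for Hist1h2al, 1.24 for Hist1h2bc and 1.78 for Hist2h2aa2. Between the peptides it was higher by 0.61 for Hist1h1c and 1.29 for Hist2h2be. In the Il-4 table the change of Hist1h2al with 65–79*SE against PBS differed by −1.84 between replicates 4–6 and 1–3. Groups of 6 span both label sets and groups of 3 are too small, so a search for single outlying libraries was void.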

How the results depend on the processing

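The 6 log2 changes of single genes that were refitted (Hist1h1c, Hist2h2aa2, Hist1h3f, Hist1h3e and Hist1h1a in 2 contrasts) kept their sign in all 56 refits, 45 of them with the same call and 11 without it. Of the counts and sums, 215 stayed within their limits and 62 moved. For the alternatives, the share of all genes called is not given, so a moved count is not read as particular to histone genes. In IFNγ replicates 4–6 the 2 calls for 65–79*SE against PBS became 30 with DESeq2, 55 without the filter on low counts, 1 with at least 10 counts in every library and 46 in the model of 18 libraries. For 65–79*PE against PBS the 6 became 3 with DESeq2 and 2 without the libraries labelled 65–79*SE, an alternative chosen after seeing the data, and the 20 between the peptides became 12 with DESeq2. In IFNγ replicates 1–3 no filter gave 3 calls between the peptides. In Il-4 replicates 1–3 no filter gave 2 for 65–79*SE and 1 for 65–79*PE, and the model of 18 libraries 0 for 65–79*SE. In Il-4 replicates 4–6, 65–79*SE against PBS gave 5 with DESeq2, 46 without the filter and 3 in the model of 18 libraries, all lower, and 65–79*PE gave 1 in each of these 3. With at least 10 counts in every library, the genes higher in replicates 4–6 numbered 31, 32 and 31 of 32 tested in the IFNγ table and 8, 7 and 8 of 8 in the Il-4 table, because fewer members were tested. Changes that differed between label sets numbered 4 (DESeq2) and 11 (no filter) between the peptides in the IFNγ table, 4 and 9 for 65–79*SE in the Il-4 table, and 2 (no filter) for 65–79*PE and 2 between the peptides there. Scaled by library total without TMM, the summed levels were 180.4 CPM in IFNγ PBS replicates 1–3, 81.5 in 65–79*SE, 77.7 in 65–79*PE and 5893 in 65–79*SE replicates 4–6. Beyond the smaller number of genes tested, the cause was not tested. Outside the 2 pairs of groups given in the methods, same-numbered libraries fell short of the limit set for pairs. In Il-4 replicates 1–3 the correlations were 0.264, 0.154 and 0.0988 for PBS and 65–79*SE. They were 0.191, 0.0814 and 0.0942 for PBS and 65–79*PE. Whether those libraries are pairs is not settled. With the replicate block the calls were 53 for 65–79*SE and 32 between the peptides in IFNγ replicates 4–6. They were 2 and 1 for the contrasts of each peptide with PBS in Il-4 replicates 1–3 and 1 for 65–79*SE in Il-4 replicates 4–6. The block changed no call in the 2 pairs of groups given in the methods. In Il-4 replicates 1–3 the block called Hist1h1c higher in 65–79*SE (log2 change 0.70, SE 0.07, adjusted p = 0.000119) and in 65–79*PE (0.64, SE 0.07, adjusted p = 0.000189), where the ratio to the PBS library of the same number was 1.58, 1.49 and 1.62 and 1.51, 1.504 and 1.499. Leaving out 1 replicate at a time, in the order 65–79*SE against PBS, 65–79*PE against PBS and between the peptides, calls ranged 17 to 22, 21 to 26 and 0 to 0 in IFNγ replicates 1–3, 0 to 38, 0 to 4 and 2 to 33 in IFNγ replicates 4–6, 0 to 2, 0 to 1 and 0 to 0 in Il-4 replicates 1–3, and 0 to 1, 0 and 0 in Il-4 replicates 4–6. Genes higher in replicates 4–6 ranged 65 to 65, 66 to 66 and 65 to 66 for PBS and the peptides (SE, then PE) of the IFNγ table and 61 to 61, 59 to 61 and 61 to 61 in the Il-4 table. Differences between label sets ranged 22 to 48, 12 to 25 and 1 to 4 in the IFNγ table and 0 to 2, 0 and 0 in the Il-4 table. Summed levels ranged 155.2 to 159.7 and 3383 to 4749 CPM in IFNγ PBS replicates 1–3 and 4–6, 70.5 to 74.4 and 6791 to 7164 in 65–79*SE, 65.2 to 70.1 and 4405 to 5288 in 65–79*PE, and in the Il-4 table, 60.7 to 86.8 and 6710.1 to 11314 in PBS, 85.3 to 117 and 4635 to 5984 in 65–79*SE and 81.5 to 109 and 6933 to 8379 in 65–79*PE.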
